A study of Mus musculus with 6 samples.

Results

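A set of 150 genes was read as lower in 3 of 6 pools of mouse embryonic tissue and higher in the other 3, whichever the genotype. They were selected on their values from 12393 genes. For each probe set that named a single gene, the mean log2 value of wild-type pool 3, mutant pool 2 and mutant pool 3 was set against the mean of wild-type pool 1, wild-type pool 2 and mutant pool 1. Probe sets in which all of the former pools exceeded all of the latter were kept, and the genes with the largest differences were taken, each by its largest probe set. The former 3 pools are called the upper pools below and the latter 3 the lower pools. These names describe how the members were chosen and are not groups of the study. The working name of the set, genes low in early-numbered pools, holds for the pools numbered 1 and 3, whereas the pools numbered 2 lay on opposite sides, the wild-type pool among the lower and the mutant pool among the upper.

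The study measured RNA of somite-level tissue from embryos of strain c57bl/6 at 9.5 days post coitum on Affymetrix MOE430A arrays, with 3 wild-type pools (Dll3+/+) and 3 Dll3 mutant pools (labelled Dll3-tm1Rbe/tm1Rbe or Dll3neo/neo). Dll3 encodes a Notch pathway ligand needed for regular somite formation, and the mutation was carried in all cells of the mutant embryos. The tissue was the trunk between the last formed somite and the otic placode without heart and endoderm, so it held neural tube, surface ectoderm, vessels and blood beside the somites. Each array carried the RNA of pooled embryos, described by the submitters as biological replicates, and no source used here says what the replicate numbers stand for.

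Every deposited value was a linear ratio to a reference of its own probe set, so it gave no expression level, and genes could not be ranked by abundance or the tissue checked by the presence of its markers. The Dll3 probe set read 0.96, 1.004 and 1.03 in pools 1 to 3 of the wild type, and in those of the mutant 0.996, 1.01 and 0.941. It therefore did not separate the genotypes, and its position relative to the mutated part of the gene was not available, so it does not check the labels. The median log2 ratio over all 22626 probe sets lay between -0.014 and 0.0043 in the 6 pools. The standard deviation of the log2 ratio over probe sets ranged from 0.17 to 0.20 and was widest in wild-type pool 3.

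Many members encode parts of machinery that growing cells share. Pre-mRNA is capped, spliced and exported by complexes of RNA and protein, messages are translated on ribosomes in the cytosol and in mitochondria, and mitochondria supply energy through the respiratory chain. Dividing cells also copy their DNA and pull the copies apart on a spindle, while ubiquitin ligases mark regulators for destruction. Embryos at this stage add somites at a steady pace in rapidly dividing tissue, where such genes are widely expressed.

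Textbook roles were assigned after the names were known and to the members only. No share over all genes stands beside the counts, so they do not show that a role was more common among members. By this role, 29 members act in transcription and chromatin. A further 26 act in ribosomes, mitochondria and metabolism, 25 in RNA processing and RNA binding, and 22 in signalling, adhesion and matrix. Another 17 belong to the cytoskeleton, membranes and transport, 13 to the cell cycle, DNA replication and repair, and 10 to ubiquitin and other protein modification. The remaining 8 were put in none of these roles. The groups were close in the size of the difference, with medians from 0.43 log2 in those 8 to 0.49 in RNA processing.

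The difference between upper and lower pools, as it was used to choose the members, ran from 0.42 to 0.81 log2 with a median of 0.46, a 1.38-fold difference in the ratio. It is given without a test for that reason. Over all 20380 probe sets with a single gene symbol the median was 0.019, and 16.7% had all upper pools above all lower pools, against 10.7% with all upper pools below. The gap between the lowest upper pool and the highest lower pool had a median of 0.20 log2 over the members, and it exceeded 0.1 in 125 of them. At the edge of the set, Usp9x (0.4177) and Dvl1 (0.4171) stood just inside and Arhgap5 (0.4169) and Srp14 (0.4168) just outside, so there was no break in the values there.

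Among the upper pools, wild-type pool 3 stood highest, with a median ratio over the members of 1.29, against 1.17 in mutant pool 3 and 1.09 in mutant pool 2. Among the lower pools the medians were 0.838 in mutant pool 1, 0.87 in wild-type pool 1 and 0.8985 in wild-type pool 2. The highest value fell in wild-type pool 3 for 103 members, in mutant pool 3 for 34 and in mutant pool 2 for 13. The first of these shares, 68.7%, compares with 51.5% of all probe sets without overlap in this direction. The lowest value fell in mutant pool 1 for 75 members, in wild-type pool 1 for 47 and in wild-type pool 2 for 28. The pools of each side were thus unequal, and the members stood farthest apart between wild-type pool 3 and mutant pool 1.

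**Figure D1:**
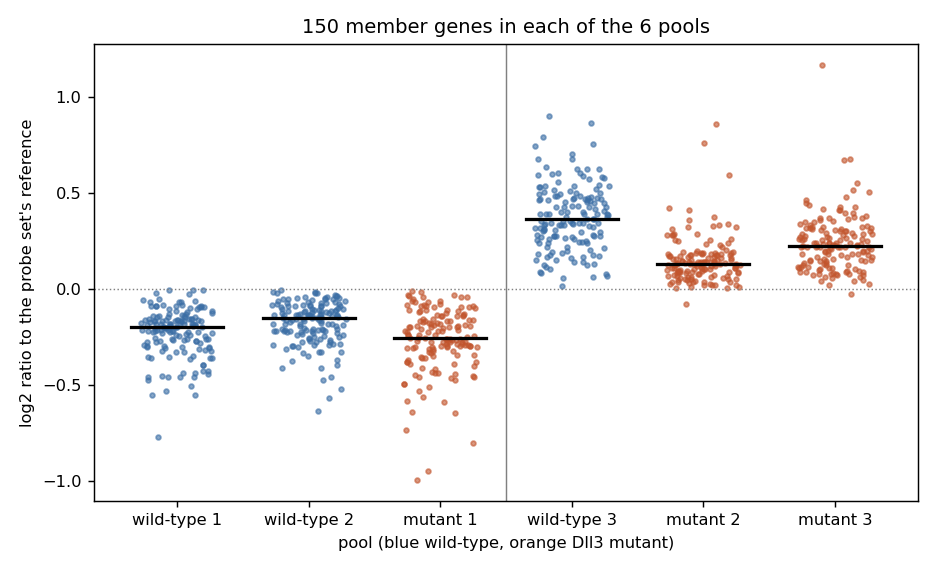
Log2 ratio to the probe set's reference (vertical axis) of the 150 members in each of the 6 pools, with 1 point per member, a black bar at the median, wild-type pools in blue and Dll3 mutant pools in orange; the 3 lower pools stand left of the vertical line and the 3 upper pools right of it. Wild-type pool 3 is the highest, with a mean log2 ratio of 0.37, and mutant pool 1 the lowest, with -0.27.

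The choice of members depended on single pools. When the same rule was applied without wild-type pool 3, 88 of the 150 genes were found again, and without mutant pool 2, wild-type pool 2 or mutant pool 1 the numbers were 92, 93 and 98. It depended more on the probe set: with the mean of all probe sets of each gene, 48 were found again, and the median difference of the 150 genes was 0.27.

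In the sentences that follow, the 6 ratios of a gene are given with the lower pools first (wild-type 1, wild-type 2, mutant 1) and then the upper pools (wild-type 3, mutant 2, mutant 3).

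RNA processing supplied several of the largest differences. Rnpc3, a protein of the minor spliceosome, had ratios of 0.905, 0.794 and 0.809 in the lower pools and 1.54, 1.10 and 1.24 in the upper pools (0.61 log2). Thoc1, a subunit of the THO complex that couples transcription to mRNA export, had 0.682, 0.965 and 0.782 against 1.40, 1.04 and 1.22. Aar2, which takes part in the assembly of a spliceosomal particle, had 0.737, 0.9 and 0.667 against 1.22, 1.10 and 1.11. In Rnpc3 the upper pools were spread more widely than the lower ones, with wild-type pool 3 highest, while in Aar2 the wider spread lay in the lower pools. The RNA helicase Helz (0.8, 0.93 and 0.572 against 1.09, 1.07 and 1.19) was lowest in mutant pool 1, and its difference was 0.57 log2 with that pool and 0.37 without it. The other probe sets of these genes did not all follow. Both of the others of Aar2 (-0.025 and -0.040) and the only other of Helz (-0.031) were slightly lower in the upper pools, and of the other 3 of Thoc1, 2 were higher (0.024 and 0.26) and 1 lower (-0.20).

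Members made up 1.21% of all genes. Of 67 measured splicing factors, 7 (10.4%) were members: Hnrnpa2b1, Ddx5, Sf3b2, Luc7l2, Luc7l, Hnrnpab and Rbm39. Each gene entered by its largest probe set, so genes with more probe sets had more chances, and these shares are not corrected for it. By the mean of all probe sets of a gene, 22 of the 67 (32.8%) had all upper pools above, against 17.3% of all genes. Other probe sets of Hnrnpab ranged from -0.25 to 0.23, and those of Luc7l differed by 0.078 and -0.0048. Hnrnpa2b1, an hnRNP that packages nascent RNA, had 0.728, 0.827 and 0.877 against 1.12, 1.14 and 1.23, and 1 of its other 3 probe sets was higher in the upper pools. The helicase Ddx5 had 0.944, 0.944 and 0.939 against 1.82, 1.25 and 1.06, so that its lower pools agreed closely and its upper pools did not. Sf3b2, a subunit of the complex that recognises the branch site, had 0.86, 0.907 and 0.808 against 1.39, 1.09 and 1.16. Luc7l2, a relative of a yeast splicing factor, was highest in mutant pool 2, with 0.931, 0.926 and 0.938 against 1.06, 1.81 and 1.17. Gas5, a noncoding RNA that hosts small nucleolar RNAs in its introns, had 0.89, 0.874 and 0.897 against 1.41, 1.10 and 1.38, and all 3 of its other probe sets also kept the upper pools above the lower pools.

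The largest difference of all belonged to Rps9, a protein of the small ribosomal subunit. Its ratios were 0.824, 0.96 and 0.664 in the lower pools and 1.04, 1.22 and 2.25 in the upper pools. The value of mutant pool 3 was the highest of any member, and without that pool the difference fell from 0.81 to 0.48 log2. The other 2 probe sets of Rps9 differed by 0.10 and 0.15, and in both of them mutant pool 3 was near 1 (0.989 and 1.01). Mrps24 (0.833, 0.876 and 0.75 against 1.12, 1.24 and 1.13) and Mrpl52 (0.89, 0.924 and 0.809 against 1.22, 1.22 and 1.08) belong to the mitochondrial ribosome.

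Mitochondrial members also covered the respiratory chain, import and RNA handling. Cox5a, a subunit of cytochrome c oxidase, had 0.959, 0.837 and 0.6 against 1.29, 1.10 and 1.04. Tomm70a, a receptor for protein import, had 0.879, 0.917 and 0.799 against 1.28, 1.19 and 1.08. Trmt10c, part of the mitochondrial enzyme that trims transfer RNA, had 0.938, 0.839 and 0.839 against 1.25, 1.06 and 1.29. Mutant pool 1 was the lowest of the lower pools in Cox5a and Tomm70a. Outside mitochondria, Smpd4, which cleaves sphingomyelin, was highest in mutant pool 3, with 0.897, 0.898 and 0.855 against 1.24, 1.10 and 1.60, and 1 of its other 3 probe sets had all upper pools below (-0.10).

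Cell division genes among the members included Skp2, Cenpe, Kif23, Ncapg, Plk4, Rfc1 and Rfc3. Skp2, the substrate receptor of a ubiquitin ligase that removes an inhibitor of cyclin-dependent kinases, had 0.854, 0.945 and 0.729 against 1.51, 1.06 and 1.18. All 5 of its other probe sets were higher in the upper pools on average, and in 3 of them the pools did not overlap. The kinetochore motor Cenpe had 0.778, 0.952 and 0.726 against 1.35, 1.05 and 1.05. Kif23, a motor of the central spindle, had 0.936, 0.839 and 0.82 against 1.23, 1.28 and 1.06, but of its other 2 probe sets 1 had all upper pools above (0.22) and 1 all below (-0.15). Ncapg, a condensin subunit, had 0.881, 0.846 and 0.898 against 1.29, 1.10 and 1.18. The clamp loader subunits Rfc3 (0.782, 0.977 and 0.805 against 1.35, 1.02 and 1.11) and Rfc1 (0.806, 0.974 and 0.833 against 1.41, 1.03 and 1.08) had the same order of pools on each side. Wild-type pool 3 was the highest pool in 11 of the 13 members of this role.

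Transcription and chromatin members included 2 parts of the SAGA complex, which modifies histones at active genes. Sgf29 had 0.833, 0.863 and 0.749 against 1.18, 1.14 and 1.32, and both of its other probe sets kept the pools apart. Eny2, which also serves mRNA export, had 0.852, 0.922 and 0.787 against 1.54, 1.17 and 1.08, with 2 of its other 3 probe sets higher and 1 lower (-0.20). The zinc finger protein Zfp932 had 0.902, 0.795 and 0.64 against 1.20, 1.13 and 1.10. Smarca2, an ATPase of the SWI/SNF remodeller, had 0.704, 0.908 and 0.78 against 1.16, 1.09 and 1.11, and its only other probe set differed by -0.064. Bmi1, a Polycomb protein, had 0.849, 0.91 and 0.833 against 1.38, 1.09 and 1.17, and Pcgf6, of the same family of ring finger proteins, had 0.8, 0.772 and 0.976 against 1.25, 1.02 and 1.23. Btg1, which restrains proliferation and was also held in the list of immediate early genes, had 0.872, 0.964 and 0.893 against 1.45, 1.04 and 1.29. Mef2c, a transcription factor of muscle and endothelium, had 0.861, 0.863 and 0.889 against 1.30, 1.11 and 1.30. These genes shared the division of the pools by the rule, but not the order of pools within a side.

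Members of signalling and adhesion were led by Cdh1 (E-cadherin), the adhesion molecule of epithelia. It had 0.585, 0.696 and 0.988 in the lower pools and 1.29, 1.01 and 1.22 in the upper pools, on its single probe set. Mutant pools 1 and 2 were almost equal, so the upper and lower sides were divided there by a small step. Of the surface ectoderm markers, 2 of 18 (11.1%, against 17.3% of all genes) had all upper pools above all lower pools by gene mean: Cdh1 and the keratin Krt18 (0.41 log2). Epcam and Krt8 overlapped, and 3 of the 18, Krt14, Grhl2 and Wnt6, lay the other way (12.1% of all genes did). Whether the amount of epithelium in the pools had a part in the Cdh1 values was not tested. In bulk tissue, fewer cells of a type and less RNA per cell cannot be told apart.

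Several members regulate G proteins and cyclic nucleotides. Rgs2, which shortens G protein signals, had 0.831, 0.851 and 0.719 against 1.33, 1.15 and 1.17. Gpsm1, which binds inhibitory G protein subunits and helps to orient spindles, had 0.939, 0.898 and 0.816 against 1.52, 1.06 and 1.47. Pde7a, a phosphodiesterase that degrades cyclic AMP, had 0.831, 0.674 and 0.939 against 1.26, 1.06 and 1.29. In these 3 genes every other probe set was higher in the upper pools on average. The kinase Tbk1, known from innate immune signalling, had 0.929, 0.858 and 0.517 against 1.20, 1.07 and 1.07, and its difference was 0.58 log2 with mutant pool 1, the lowest, and 0.32 without it.

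Of 37 measured Notch pathway genes, 1 (2.70%) was a member, and of 41 Wnt pathway genes also 1 (2.44%), against 1.21% of all genes. The receptor Notch2 had 0.897, 0.885 and 0.638 against 1.10, 1.12 and 1.16 on the member probe set, but its other probe set lay the opposite way, at 1.03, 1.07 and 1.01 against 0.911, 0.987 and 0.875. Dvl1, which relays Wnt signals inside the cell, had 0.903, 0.949 and 0.768 against 1.24, 1.05 and 1.21, and its other probe set kept the same order of sides. The matrix genes were Itgb5 (an integrin subunit), Lamb1 (a laminin chain) and Hapln1 (a link protein of hyaluronan matrix). Itgb5 had 0.729, 0.816 and 0.856 against 1.18, 1.22 and 1.14, yet 2 of its other 3 probe sets were lower in the upper pools. Lamb1 (0.801, 0.955 and 0.814 against 1.38, 1.19 and 1.05) and Hapln1 (0.953, 0.834 and 0.889 against 1.31, 1.05 and 1.29) were higher in the upper pools on all their probe sets.

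Among cytoskeletal and membrane genes, Gas2, which binds actin and microtubules, had 0.822, 0.996 and 0.501 against 1.38, 1.004 and 1.08. Wild-type pool 2 and mutant pool 2 were nearly equal, and the difference was 0.62 log2 with mutant pool 1, the lowest, and 0.34 without it. Mapre2, which binds growing microtubule ends, was highest in mutant pool 2, with 0.719, 0.94 and 0.71 against 1.06, 1.51 and 1.07, and 1 of its other 3 probe sets had all upper pools below. The chloride channel protein Clcc1 (0.895, 0.974 and 0.799 against 1.60, 1.03 and 1.42) and Ier3ip1 (0.955, 0.984 and 0.738 against 1.69, 1.02 and 1.34), both of the endoplasmic reticulum, were high in both pools numbered 3.

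The anion exchanger Slc4a1, a membrane protein of red cells, had 0.86, 0.918 and 0.991 against 1.01, 1.69 and 1.19 and was highest in mutant pool 2. The embryonic globins Hba-x, Hbb-y and Hbb-bh1 were also highest in mutant pool 2 (0.16, 0.26 and 0.23 log2) and overlapped between the upper and lower pools, and the gene mean of Slc4a1 overlapped too. Of 17 measured erythroid markers, 1 (5.88%) had all upper pools above and 1 all below, against 17.3% and 12.1% of all genes. The part of blood content in the Slc4a1 values was not tested.

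Ubiquitin genes included the ligase Marchf7 (0.835, 0.843 and 0.906 against 1.49, 1.09 and 1.20), the ligase adaptor Dcaf11 (0.881, 0.817 and 0.767 against 1.23, 1.12 and 1.17) and the deubiquitinase Usp9x (0.892, 0.925 and 0.739 against 1.08, 1.11 and 1.22). Wild-type pool 3 was the highest pool in 9 of the 10 members of this role. Usp9x was the exception, with mutant pool 3 highest, and all 6 of its other probe sets were higher in the upper pools on average.

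**Figure D2:**
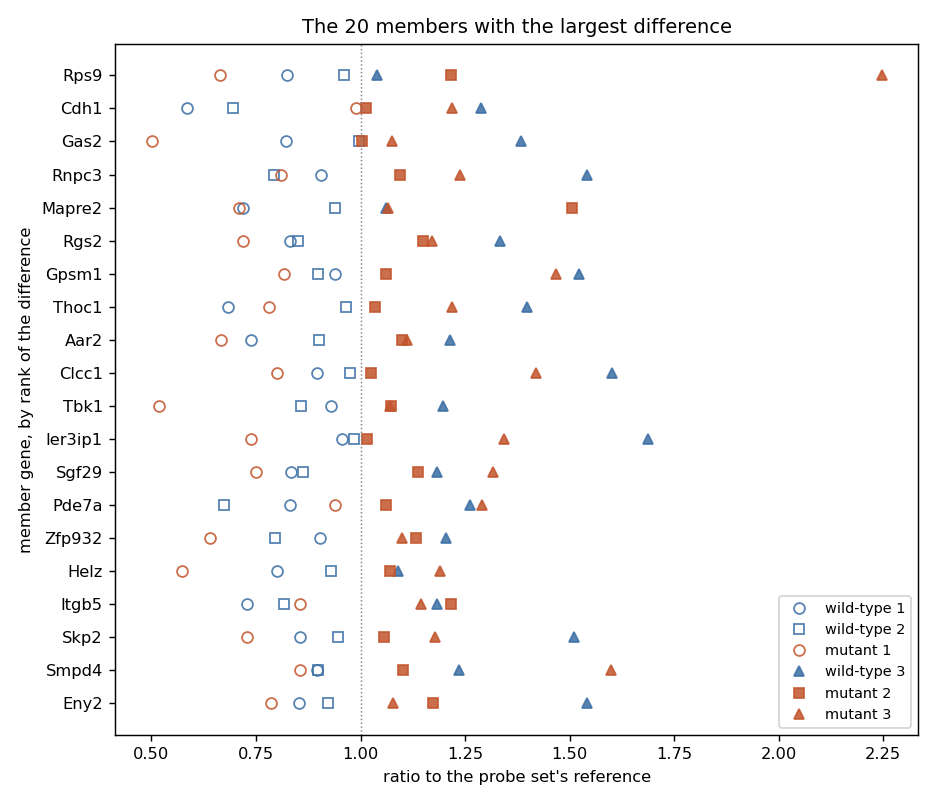
Ratio to the probe set's reference (horizontal axis, linear) of the 20 members with the largest difference in the 6 pools; open symbols are the lower pools and filled symbols the upper pools, blue for wild-type and orange for Dll3 mutant, with circles, squares and triangles for replicate numbers 1, 2 and 3. Rps9 is set apart by mutant pool 3 at 2.25, and the lowest value is that of Gas2 in mutant pool 1, at 0.501.

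The wider gene classes were read from lists of genes rather than from the members. Here each gene was the mean of its probe sets, and over all 12393 genes 17.3% had all upper pools above all lower pools and 12.1% all below, with a median difference of 0.010 log2. These differences use the same pools as the choice of members and are described without a test. Of 68 respiratory chain and ATP synthase genes, 35 (51.5%) had all upper pools above and 1 below, with a median of 0.12. Of 60 mitochondrial ribosomal proteins, 30 lay above and 1 below (median 0.13), and of 39 proteasome subunits 17 lay above and 2 below (median 0.13). Cytosolic ribosomal proteins had 16 of 43 above and 1 below with a smaller median of 0.071. Respiratory chain and mitochondrial ribosomal genes had the largest shares above all lower pools among the lists of over 20 measured genes.

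DNA replication had 19 of 44 genes above and 0 below, with 42 of the 44 higher on average, and mitosis had 19 of 45 above and 0 below, with 43 higher. Translation factors and tRNA synthetases had 20 of 47 above, chromatin regulators 20 of 52 and splicing factors 22 of 67. In the short list of long noncoding and nuclear RNAs 7 of 13 lay above: Gas5, Snhg1, Snhg5, Snhg6, Snhg8, Snhg11 and Tug1, while Neat1 lay below. All but Tug1 and Neat1 of these 8 belong to the class that hosts small nucleolar RNAs, as Gas5 does. None of the 39 proteasome genes and none of the 47 translation genes was among the 150. Members made up only 1.21% of all genes, so lists of this length need not hold any.

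The lists that describe the trunk and its patterning differed among themselves, beside 17.3% of all genes above and 12.1% below. Notch pathway genes had 6 of 37 above and 2 below with a median of 0.011, which turned to -0.0093 under quantile normalization and to -0.00061 with median centring. Wnt pathway genes had 9 of 41 above and 2 below, and matrix and adhesion genes 9 of 50 above and 3 below. Somite and sclerotome markers had 2 of 18 above (Tbx18 and Foxd1) and 0 below. Trunk and posterior Hox genes had 0 of 21 above and 3 below (Hoxb7, Hoxc6 and Hoxd13) with a median of -0.087, and 15 of the 21 were lower on average. Their mean log2 ratio was high in wild-type pools 1 and 2 (0.13 and 0.068) only. Mutant pool 1, also a lower pool, was the lowest of all (-0.092). Anterior Hox genes had 0 of 9 above and 0 below, but 8 of the 9 were higher on average, and their median of 0.14 was the highest of the 45 lists. Their mean log2 ratio was -0.26 in mutant pool 1. The other lower pools, wild-type 1 and 2 (-0.0096 and -0.022), lay above the upper pool mutant 2 (-0.039). Neither Hox list as a whole thus followed the division of the pools. Neural progenitor markers (2 of 15 above and 0 below, median 0.087) and markers of notochord and floor plate (1 of 7 above and 1 below, median 0.091) also had medians over that of all genes. Immediate early genes, which respond within minutes to handling or stimulation, had 4 of 36 above and 5 below. Heart muscle markers, a check of the dissection, had 0 of 18 above and 3 below. Of the 45 lists, the Notch list was the only one whose median changed sign under either scaling. Without wild-type pool 3, the pool with the widest spread, 22.4% of all genes had the remaining upper pools above all lower pools. The respiratory chain then had 40 of 68 genes above, mitochondrial ribosomal proteins 30 of 60, mitosis 26 of 45, DNA replication 21 of 44 and splicing factors 25 of 67. The Notch list then had 11 of 37 above, and the median of the heart muscle list turned from -0.026 to 0.0077.

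**Figure D3:**
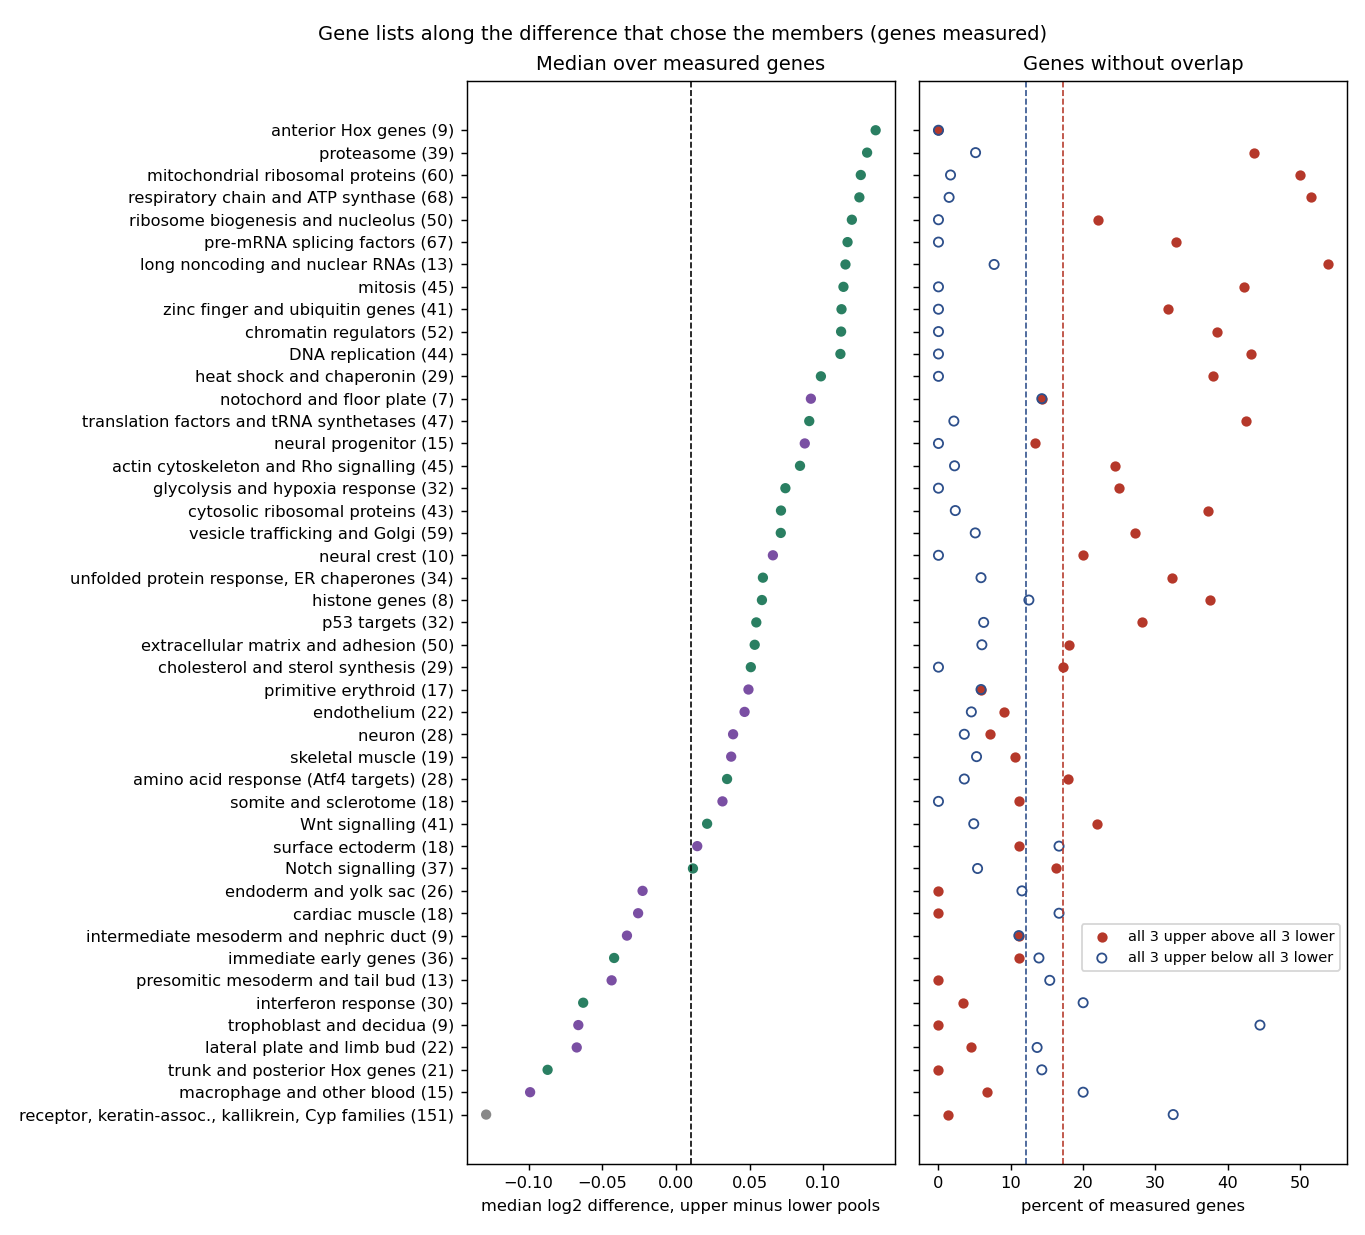
Gene lists along the difference that chose the members, with the number of measured genes in brackets: left, the median log2 difference of upper minus lower pools (function lists green, cell type markers purple, a list added after the data were seen grey); right, the percentage of genes whose 3 upper pools lie all above (red) or all below (open blue) the 3 lower pools. Dashed lines mark the values over all genes, 0.010 at left and 17.3% and 12.1% at right; the respiratory chain stands at 51.5% above.

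Other probe sets of the same genes were read as a description. They come from the same pools and entered the choice, since the rule kept the probe set with the largest difference without overlap. There were 268 of them for 118 members, and the other 32 members had a single probe set. Of the 268, 200 were higher in the upper pools on average, 80 (29.9%) had all upper pools above and 10 (3.73%) all below. Over all probe sets with a single symbol the shares were 16.7% and 10.7%, and nothing is supported by the comparison. Their median difference was 0.11 log2, against 0.46 for the probe sets that were selected. In 66 members every other probe set was higher, in 61 at least 1 kept the pools apart, and in 9 none was higher.

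Some members, several of them RNA-binding proteins, went opposite ways on different probe sets. Rbm39, a splicing coactivator, had 0.912, 0.795 and 0.944 against 1.06, 1.17 and 1.33 on the member probe set and 1.02, 1.02 and 1.02 against 0.499, 0.902 and 0.985 on another. The remaining probe sets of Rbm39 were all higher in the upper pools on average, by 0.17 to 0.42 log2. Mtdh, which binds RNA and membranes, differed by 0.49 on the member probe set and by -0.34 on another, and the splicing regulator Qk by 0.50 and -0.33. For the neuronal RNA-binding protein Elavl2 the values were 0.54 and -0.33, and for Ddx5 0.51 and -0.32. Of the other probe sets, 3 of 5 were higher in the upper pools on average for Mtdh, 2 of 3 for Qk, 2 of 4 for Elavl2 and 3 of 5 for Ddx5. Which transcript forms these probe sets read was not tested.

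**Figure D4:**
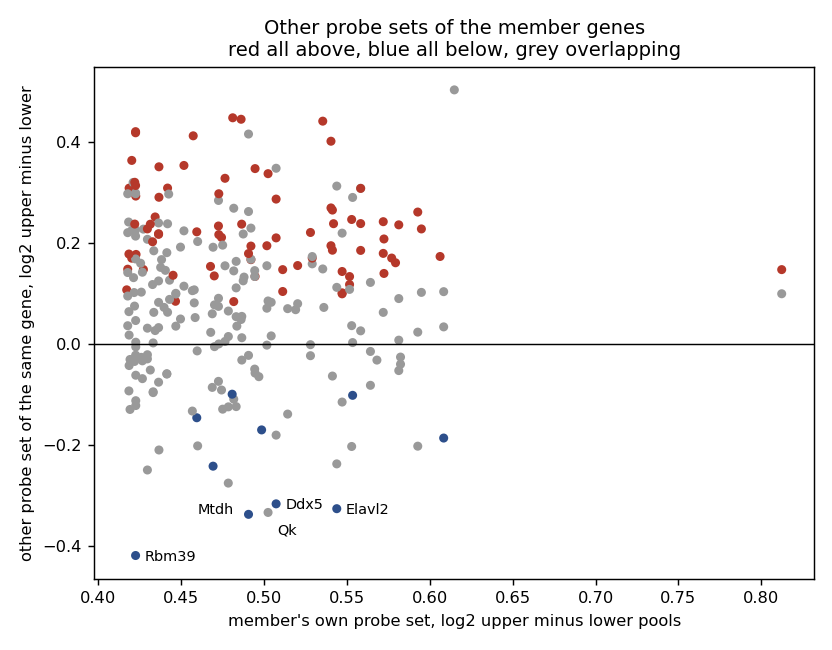
Log2 difference of upper minus lower pools for the member's own probe set (horizontal axis) and for each of the 268 other probe sets of the same genes (vertical axis); red points have all 3 upper pools above all 3 lower pools, blue points all below, grey points overlap. Most points lie above 0 and below the value of the member's own probe set, and Rbm39 lies lowest, at -0.42.

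The type of probe set differed from that of the array. Probe sets whose names mark several transcripts of 1 gene (ending in _a_at) made up 32.7% of the members and 18.3% of all with a single symbol. Those open to related genes (ending in _s_at or _x_at) supplied 17 members (11.3%, against 6.25% of all with a single symbol) and 11 (7.33%, against 6.29%). The signal of near-identical copies cannot be told apart in them. A median ratio below 1 over the 6 pools was found in 1 member (0.667%) and in 5.84% of all probe sets with a single symbol. The 64 control probe sets cover spiked controls of labelling and hybridisation and some mouse RNAs such as actin, Gapdh and 18S. Of the 64, 4 had all upper pools above and 8 all below, beside 16.7% and 10.7% of all probe sets with a single symbol. The 8 below were spiked dap, phe and thr controls and a pyruvate carboxylase probe set. The 4 above were all spiked hybridisation controls (bioD and cre), and 1 of them differed by more than any member. This bioD probe set (5′ part) had 0.856, 0.813 and 0.881 in the lower pools against 1.75, 1.12 and 2.002 in the upper pools, or 0.89 log2, with both pools numbered 3 highest. A cre probe set (5′ part) differed by 0.35 and 2 further bioD probe sets by 0.32 and 0.13, while the 3′ part of the first bioD control overlapped (-0.033). The bioB probe sets overlapped, and 5 of the 6 were lower in the upper pools by 0.28 to 0.40 log2, with both pools numbered 3 lowest. The 18S ribosomal RNA probe sets also overlapped, with differences of -0.11 to -0.22. The part of hybridisation in the members' values was not tested. For actin the ratio of upper to lower pools was near 1 at the 3′ end, in the middle and at the 5′ end (differences of 0.030, 0.051 and 0.028 log2), with overlap in each, and for Gapdh the differences were -0.040, -0.040 and 0.017.

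Promoter windows were examined as a description of the members, whose shared division of the pools was set by the choice. RefSeq windows of 250 bases before to 50 bases after the start of the gene (GRCm38.p6) were found for 126 of the 150 members and for 9882 of the 12393 genes. The members' windows held a median of 23 CpG dinucleotides, against 18 over all genes, and 80.2% against 60.0% held at least 15. Such CpG-rich promoters are typical of widely expressed genes. Of the motifs searched on both strands, the core of the cyclic AMP response element, TGACG, was found in 42.1% of the members' windows and in 28.4% of all. Among windows with at least 15 CpG the shares were 45.5% and 36.0%. The full element TGACGTCA, which is bound by CREB and ATF proteins and contains that core, was found in 8 members (6.35%), against 2.75% of all windows.

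The Sp box GGGCGG was held by 66.7% and 57.5%, and the Hes-type site CACGCG by 23.8% and 15.3%. Both sites and the full element TGACGTCA contain CpG, in which the members' windows were richer. Unlike TGACG, they were not compared among windows with at least 15 CpG, so the part of base composition in these shares was not tested. CCAAT was held by 38.1% of each. The YY1 core AAGATGG was held by 3.17% and 6.89%. These matches are descriptions of the letters in the windows, and binding was not measured.

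The full element is shown in capitals, with 30 bases on each side, for 6 of the 8 members, because it shows how far the windows of members with this motif resemble each other. Written 5′ to 3′ on the strand of the gene, it began 57 bases before the start in Rps9 (chr7:3703954-3704021), 34 in Cenpe (chr3:135212499-135212566), 198 in Ell2 (chr13:75707256-75707323), 131 in Med21 (chr6:146642418-146642485), 52 in Topors (chr4:40269856-40269923, minus strand) and 63 in Tenm3 (chr8:48674716-48674783, minus strand).
Rps9: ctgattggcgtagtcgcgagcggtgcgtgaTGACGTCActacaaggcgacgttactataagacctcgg
Cenpe: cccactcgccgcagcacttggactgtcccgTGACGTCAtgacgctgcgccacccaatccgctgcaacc
Ell2: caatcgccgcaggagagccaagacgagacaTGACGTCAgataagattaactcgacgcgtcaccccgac
Med21: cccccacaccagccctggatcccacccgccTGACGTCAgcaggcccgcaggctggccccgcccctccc
Topors: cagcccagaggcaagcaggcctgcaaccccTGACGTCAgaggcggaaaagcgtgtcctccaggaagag
Tenm3: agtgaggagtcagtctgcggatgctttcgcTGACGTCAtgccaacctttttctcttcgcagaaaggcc
The other 2 members with the element were Akirin1, where it began 12 bases before the start, and Dvl1, where it began at base 4 of the transcript. The stretches differ outside the element, and in Cenpe a second core follows directly after it. Ell2 and Med21 encode parts of the machinery of transcript elongation and initiation, Topors a ubiquitin and SUMO ligase, and Tenm3 a teneurin of the cell surface. Their ratios were 0.815, 0.862 and 0.868 against 1.13, 1.18 and 1.16 in Ell2, where the pools of each side agreed closely, and 0.68, 0.968 and 0.845 against 1.18, 1.03 and 1.11 in Tenm3, where they did not.

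The comparison of the study, Dll3 mutant against wild-type, is not independent of the choice of members, since the upper pools held 2 mutant pools and 1 wild-type pool and the lower pools the reverse. In limma, with Benjamini-Hochberg adjustment over 22626 probe sets, 0% of all probe sets passed an adjusted p of 0.05, and 0 of the 150 members did. At an unadjusted p under 0.05 there were 595 probe sets (2.63%) and 4 members (2.67%), all 4 higher in the mutant. The members' median difference was 0.050 log2 (95 higher and 55 lower in the mutant), against 0.0034 over all probe sets. The smallest p-values belonged to Zfp790, with a difference of 0.40 (SE 0.14), Slc4a1, with 0.44 (SE 0.16), and Zfp704, with 0.35 (SE 0.14). On the lower side stood Gas2 with -0.36 (SE 0.26), Cald1 with -0.20 (SE 0.18) and Peli1 with -0.20 (SE 0.19). The adjusted p in limma was 0.999959 for all 6. The choice of members forces the genotypes to overlap in every one of them, so these values say nothing on whether the genotypes act alike. The median over the members turned negative when wild-type pool 1 (-0.068), wild-type pool 2 (-0.046) or mutant pool 3 (-0.057) was left out. Without wild-type pool 3, 44 members (29.3%) had an unadjusted p under 0.05 in limma, against 5.43% of all probe sets. The choice of members shapes that count, since both wild-type pools left were then lower pools.

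Zfp790 and Zfp704 encode zinc finger proteins. In pools 1 to 3, Zfp790 read 0.863, 0.795 and 1.04 for wild-type against 0.958, 1.26 and 1.37 for the mutant, and Zfp704 had 0.728, 0.818 and 1.05 against 0.954, 1.13 and 1.20. In both the genotypes overlapped through wild-type pool 3 and mutant pool 1, as the choice of members requires of every one of them.

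Within the numbers 1 and 3, both pools of a number lay on the same side. Their difference by genotype was not the one ranked on, but all 4 pools entered the choice. Members were highest in wild-type pool 3 more often than all probe sets without overlap (68.7% against 51.5%). They were also more often lowest in mutant pool 1 (50% against 39.1%). Both lower the mutant relative to wild-type, so the counts below are not independent of the choice. In a limma fit of these 4 pools with the number as a block, 0% of 22626 probe sets and 0 of the 150 members passed the adjusted p of 0.05. At an unadjusted p under 0.05 there were 1105 probe sets (4.88%) and 24 members (16%), of which 21 were lower in the mutant. Of the members, 115 were lower in the mutant and 35 higher, with a median of -0.071, but after quantile normalization the numbers were 76 and 74, with a median of -0.0043. The 3 smallest p-values were those of Gas2 (-0.54, adjusted p = 0.619), Cox5a (-0.49) and Tubgcp3 (-0.42), a protein of the complex that nucleates microtubules. Mutant pool 1 had the lowest value of all 6 pools in each of these 3 genes.

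By number, the members' median difference of mutant minus wild-type was -0.041 in number 1, 0.32 in number 2 and -0.13 in number 3. The value of number 2 is positive in all 150 members by the choice of members. In number 3, 108 members were lower in the mutant, and in number 1, 84 were. In both numbers together, 58 were lower and 16 higher in the mutant, and 74 went opposite ways. The genotype difference thus had no common sign over the members in numbers 1 and 3. Since these pools entered the choice, no conclusion on genotype is drawn from them.

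**Figure D5:**
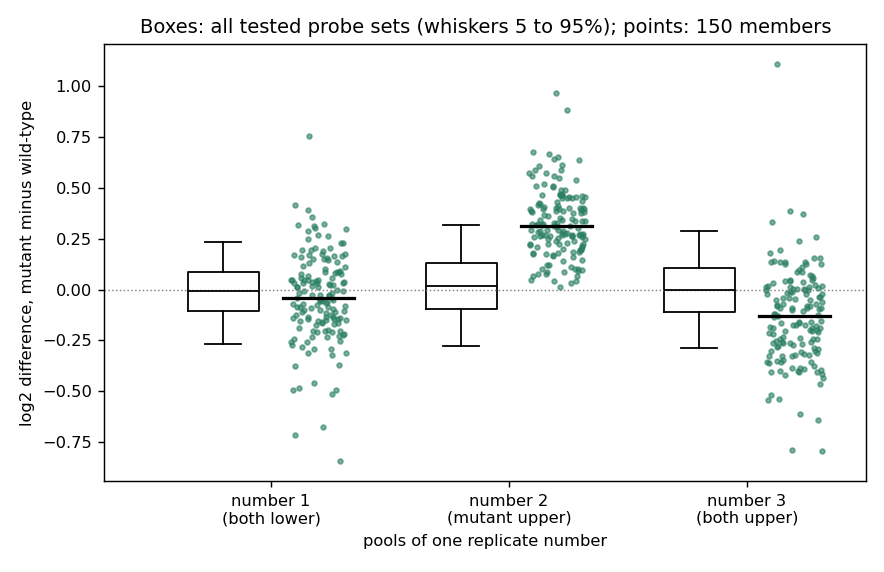
Log2 difference of the Dll3 mutant pool minus the wild-type pool of the same replicate number (vertical axis), for all tested probe sets (boxes: median and quartiles, whiskers 5 to 95%) and for the 150 members (green points, black bar at the median). The members' medians are -0.041, 0.32 and -0.13 in numbers 1, 2 and 3; in number 2 all members are above 0 because the mutant pool was an upper pool and the wild-type pool a lower pool.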

How the data were processed

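The deposited table gives 22690 probe sets in 6 pools. Its values were read as linear ratios, each probe set being scaled to its own reference by the authors, since 93.4% of the probe sets have a median within 0.0015 of 1 and the range is 0.266 to 2.498. The submitters' processing notes name RMA and MAS5 but no version, role or scaling. Because no signal level is kept, a dim probe set can show noise as a difference.

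The 64 control probe sets were left out. A single gene symbol was available for 20380 probe sets, from the annotation of the platform. Log2 of the ratio was taken without a pseudocount. Genotype was tested two-sided with limma (version 3.58.1, under R 4.3.3; linear model and moderated variance, with no intensity trend because the table has no intensity; Benjamini-Hochberg over 22626 probe sets, adjusted p under 0.05). The smallest p of an exact permutation test over these pools would be 0.1. The script was tested on simulated data. The members, the 28 function lists and the 16 marker lists were chosen with earlier results of these data known, and 1 further list was added after the data were seen. Named genes were Dll3, the 20 members with the largest difference, those at the edge of the set, up to 4 members of each list, the 3 members per direction with the smallest p for genotype and the members with opposite probe sets; others were chosen after their values were seen, as examples of their role. Alternatives were quantile normalization, median centring, probe sets open to related genes left out, the mean of all probe sets of a gene, array weights, a variance trend, the replicate number as a block and each pool left out.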

Additional observations from a re-analysis of the deposited data

How the results depend on the processing

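The median difference of the 150 genes between upper and lower pools stayed between 0.41 and 0.53 log2 with each pool left out, and was 0.27 with the mean of all probe sets of a gene. Of the 150 genes, the rule found again 48 with that mean, 84 without both pools numbered 2, between 88 and 105 with each pool left out, 123 without probe sets open to related genes, 132 after quantile normalization, 149 after median centring and 149 without the rows whose median is below 1, an alternative chosen after seeing the data. The cause was not tested. In limma, 0 members passed the adjusted p of 0.05 for genotype under each alternative run. Of all 22626 probe sets, 1 passed with array weights and 1 without wild-type pool 1. Within numbers 1 and 3, 2 passed with a variance trend. With so few called on the whole array, the 0 among 150 members is no result about them. At an unadjusted p under 0.05 there were 4 members (2.67%, against 2.63% of all probe sets) in the fit without alternatives. There were 33 (22%, against 7.82%) with array weights and up to 44 (29.3%, against 5.43%) without wild-type pool 3. Without that pool, both wild-type pools left were lower pools, so the choice of members shapes the count. The members' median genotype difference was 0.050, and it reversed to -0.068 without wild-type pool 1, -0.046 without wild-type pool 2 and -0.057 without mutant pool 3, with a range of -0.068 to 0.24 over the pools left out. It was 0.22 with array weights. Peli1 turned from -0.20 to 0.0077 with array weights and to 0.020 without wild-type pool 3, and ranged from -0.33 to 0.020 over the pools left out.

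With the replicate number as a replicate block in limma, 1 of 22626 probe sets and 0 members passed the adjusted p of 0.05. In that fit 15 members (10%) had an unadjusted p under 0.05, against 4.74% of all probe sets. Deviations of pools with the same number correlated at 0.37, -0.025 and 0.37 for numbers 1, 2 and 3 over all probe sets. Across numbers 1 and 3 they correlated at -0.28 (wild-type 1 with mutant 3) and -0.43 (wild-type 3 with mutant 1). Wild-type 2 correlated at 0.20 with mutant 1 and -0.21 with mutant 3. Mutant 2 correlated at 0.15 with wild-type 3 and -0.17 with wild-type 1. Deviations were taken from the mean of each genotype, so these correlations are not independent of each other. Pools numbered 1 and 3 correlated positively within their number, while those numbered 2 did not. What the numbers stand for is not known, and the fit without alternatives did not pair the pools. A filter on dim probe sets and a pseudocount need signal levels and were not run. With 3 pools a genotype and no signal over background, small differences of dim genes cannot be judged.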

Other observations

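Over all genes, 17.3% had all upper pools above all lower pools and 12.1% all below. In a list put together after the data were seen, from odorant, vomeronasal and taste receptors, keratin-associated proteins, kallikreins and cytochromes of the liver, 125 genes were lower and 26 higher in the upper pools, and 49 had all upper pools below all lower pools, against 2 above. Their median difference was -0.13 log2, and 0 of them were members. Their promoter windows, found for 132, held a median of 2 CpG dinucleotides, against 23 for the members. Trophoblast and decidua markers, of which 9 were measured, were lower in the upper pools in all 9 by gene mean, with 4 of them all below. Macrophage and other blood markers had 3 of 15 all below and 1 above, and interferon response genes 6 of 30 all below and 1 above, shares of 20% below each in lists this short. How bright these probe sets were was not available, and the part of background signal in their values was not tested.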
